A study of Drosophila melanogaster with 12 samples.

Results

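Gene expression in adult heads of Drosophila melanogaster of the genotype y w; tim01 was compared between the light phase and the dark phase of 1 day of alternating light and darkness (LD). The rule took the arrays titled ZT2, ZT6 and ZT10 as the light phase and those titled ZT14, ZT18 and ZT22 as the dark phase, 6 of the 12 arrays of the series, where ZT gives the hours since lights-on. The other 6 arrays (CT2 to CT22) came from the following day in constant darkness (DD). Every group carries the same 3 mutations: y affects body colour, w removes the screening pigment of the eye, and tim01 removes the function of timeless, without which the circadian clock does not run. Entrainment lasted 3 days, with light and darkness of 12 h each, and collection followed at 4 h intervals. Each array holds pooled RNA of about 100 to 200 heads. The labels give neither sex nor age.

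In the fly head, light is caught by rhodopsins in the photoreceptors of the compound eye and opens the TRP and TRPL channels. Light also reaches the clock through the photoreceptor protein cryptochrome, which targets the TIM protein for degradation. In flies without TIM the feedback loop of the clock stands still, so a difference between day and night in such flies cannot follow a TIM-dependent rhythm. The comparison addresses which head transcripts differ between lit and unlit hours in that state.

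Levels were summarised with RMA and are on a log2 scale, so a difference of 1 is a doubling. RNA was hybridised to Affymetrix arrays, and 13966 probe sets were tested. Each hour has 1 array. The 3 arrays of a phase are therefore different hours and not replicates of 1 condition, and a p-value measures only the spread among the arrays. The light phase always came before the dark phase within the LD day, so phase and order of collection cannot be told apart. Differences are light minus dark, with the standard error (SE) of a limma fit to all 12 arrays, and adjusted p-values are limma's with Benjamini-Hochberg adjustment over all probe sets at a threshold of 0.05.

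The 6 LD arrays were alike. The standard deviation of the differences between 2 arrays, over all probe sets, lay between 0.15 and 0.17 for the 3 pairs of light arrays, between 0.17 and 0.25 for the 3 pairs of dark arrays, and between 0.16 and 0.24 for the 9 pairs of 1 light and 1 dark array. The most similar light and dark arrays were ZT2 and ZT14 (0.16), and the least similar pair of all was ZT14 and ZT22 (0.25), both from the dark phase. Among the tissue markers of the head, 5 of 7 measured photoreceptor genes, 7 of 15 glial genes, 4 of 14 neuronal genes and 14 of 16 head fat body genes lay above the upper quartile on all 12 arrays. Genes listed for other tissues were also high: 11 of 21 thorax muscle genes and 18 of 47 midgut and digestive genes lay above the upper quartile on all 12 arrays. Whether this RNA came from outside the head was not tested. On ZT14 the differences between the 3′ and 5′ control probe sets of eIF-4a and GAPDH were at 3.70 and 2.58, above those of the other LD arrays, while those of actin (2.30) and 18S rRNA (0.09) lay within their range. The part of this in the results was not tested beyond leaving out the array.

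Differences between light and darkness were small and few. Over all probe sets the median absolute difference was 0.06 and the 95th percentile 0.20. Of the 13966 probe sets, 4 passed the threshold (0.0286%), all of them lower in light, and 0 passed in the other direction (0.0%), by limma's adjusted p. An unadjusted p under 0.05 was found in 994 probe sets (7.12%), 473 higher (3.39%) and 521 lower in light (3.73%). The 3 light arrays lay above the 3 dark arrays in 1034 probe sets (7.4%) and below them in 762 (5.46%).

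**Figure D1:**
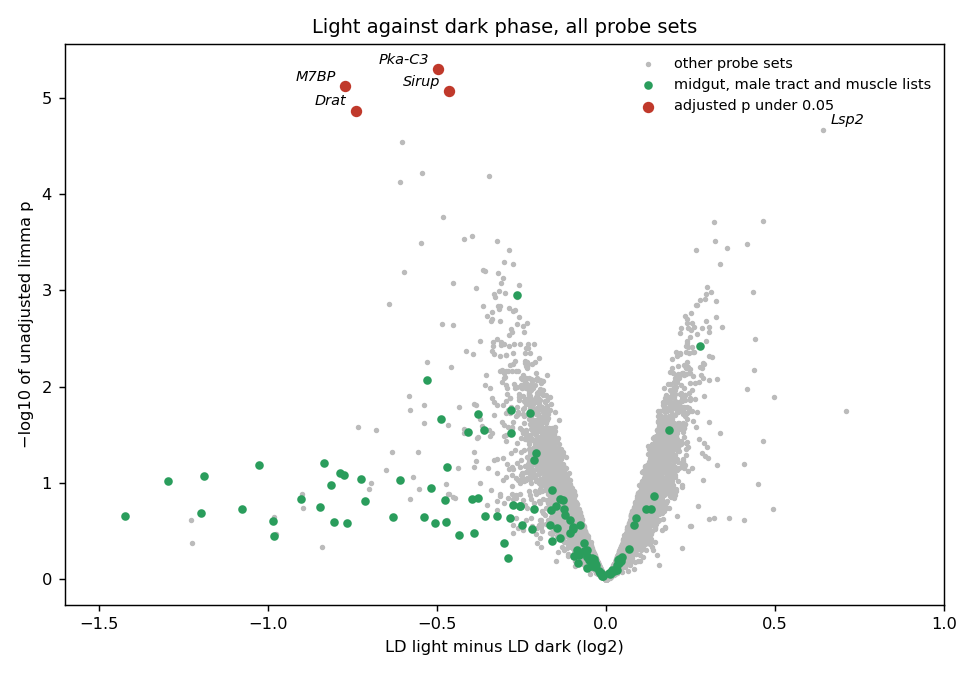
Difference between LD light and LD dark (x axis, log2) against −log10 of the unadjusted limma p (y axis) for the 13966 probe sets. The 4 probe sets past the threshold (red) are lower in light, and the genes of the midgut, male tract and thorax muscle lists are in green.

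Pka-C3 (CG6117) encodes a catalytic subunit of protein kinase A, the kinase that answers to cyclic AMP. Its values were 4.51, 4.54 and 4.49 at ZT2, ZT6 and ZT10, and 5.03, 5.14 and 4.85 at ZT14, ZT18 and ZT22. The light arrays were nearly level and all lay below the dark arrays by 0.31 or more. The mean was 4.51 ± 0.03 in light and 5.01 ± 0.15 in darkness (SD over 3 arrays). Light minus dark came to -0.50 (SE 0.07, adjusted p = 0.0397). In DD the values of Pka-C3 lay between 4.66 and 4.95, above every lit array.

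Sirup (CG7224) encodes an assembly factor of succinate dehydrogenase, the complex II of the mitochondrial respiratory chain. It stood at 7.85, 7.91 and 8.02 on the light arrays and at 8.29, 8.49 and 8.39 on the dark arrays. The groups did not overlap and were 0.27 apart. The difference was -0.46 (SE 0.07, adjusted p = 0.0397), against SDs of 0.08 in light and 0.10 in darkness. On the DD arrays the order was turned: Sirup was at 8.38, 8.35 and 8.25 at CT2, CT6 and CT10, and at 8.08, 8.14 and 8.09 at CT14, CT18 and CT22.

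Drat (CG1600) belongs to the alcohol dehydrogenase-like proteins. Its values were 7.17, 6.81 and 6.71 on the lit arrays in order of collection, and 7.44, 7.88 and 7.58 in the dark. The lowest dark array stood 0.28 above the highest light array. The difference of -0.74 (SE 0.12, adjusted p = 0.0474) compares with SDs of 0.24 and 0.23. All 6 DD values of Drat, from 7.43 to 7.59, were above the lit values and near the lower dark ones.

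M7BP (CG43340), a gene for a myosin-binding protein, is measured by 5 probe sets, and 1 of them was called. That probe set had 3.84, 3.64 and 3.81 in light and 4.46, 4.87 and 4.28 in darkness, a difference of -0.77 (SE 0.12, adjusted p = 0.0397). The groups were 0.44 apart, the widest gap among the genes named here by size of p. The other 4 probe sets of M7BP had differences between 0.05 and 0.14, with adjusted p-values of 0.814 or more. The mean over the 5 probe sets differed by -0.09 (adjusted p = 0.808), so the call belongs to 1 probe set and not to the gene as measured by all 5.

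**Figure D2:**
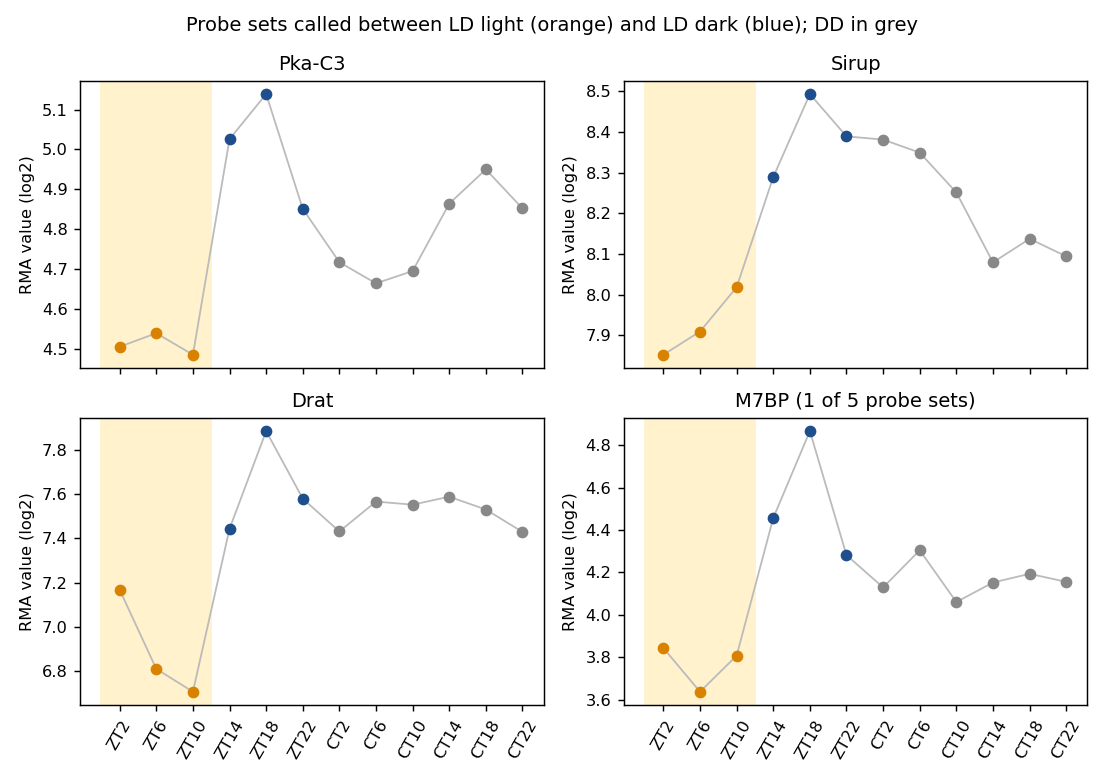
RMA values (log2, y axis) of the 4 called probe sets on the 12 arrays in order of collection (x axis), with LD light in orange on a shaded ground, LD dark in blue and DD in grey. In each panel the 3 lit arrays are the lowest of the 12, and the highest is ZT18.

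The count of 4 depended on the arrays in the fit. It was 8 without ZT14, 4 without ZT22, 3 without CT10 and 1 without ZT2. Without any other single array, LD or DD, it was 0. The members changed as well. Pka-C3 was not among the 8 without ZT14. The 4 without ZT22 were Pka-C3, M7BP, CG1943 and rgr, so Drat and Sirup were lost. The 1 without ZT2 was Drat. The sizes moved less than the calls: over the alternatives tried the difference of Pka-C3 stayed between -0.58 and -0.43, that of Sirup between -0.52 and -0.41, that of Drat between -0.88 and -0.62, and that of the M7BP probe set, the mean over probe sets aside, between -0.90 and -0.61.

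The gene nearest to the threshold on the other side was Lsp2 (CG6806), which encodes a storage protein made by the fat body. Lsp2 was at 10.73, 11.01 and 10.76 in light and at 10.45, 10.18 and 9.94 in darkness. The light arrays were higher by 0.28 or more, and the dark values became lower with each collection. The difference was 0.64 (SE 0.11, adjusted p = 0.0597), and it passed without ZT14 (0.77, adjusted p = 0.00794). The values of Lsp2 in DD, 10.44 to 10.60, lay below the lit values and, on 5 of 6 arrays, above the dark values.

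None of the other genes with the smallest p-values in either direction passed. Those with lower values in light included CG1943 (-0.60, SE 0.10, adjusted p = 0.0665), which was nearly constant at 5.88 to 5.94 in light and at 6.72, 6.59 and 6.26 in darkness. Amph, which encodes the membrane-bending protein amphiphysin, was at -0.34 (SE 0.06, adjusted p = 0.112), and its dark values of 6.33 to 6.36 were the tightest among these genes. A second, dimmer probe set of Amph was at -0.004. CG3036 had -0.61 (adjusted p = 0.116), with the value at ZT2 (7.72) well below those at ZT6 and ZT10. The Runx transcription factor gene lz, which acts in eye development, was at -0.42 (SE 0.09), and Rsf1, which encodes a repressor of splicing, at -0.32 (SE 0.07). CG4822, CG5346 and CG8419 were between -0.40 and -0.28. The adjusted p-values of lz, Rsf1 and these 3 genes lay between 0.252 and 0.312.

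Among genes with higher values in light, CG5455 (0.46, SE 0.09) and CG9427 (0.32, SE 0.06) followed Lsp2, both with adjusted p = 0.228. CCT8, a subunit of the cytosolic chaperonin that folds actin and tubulin, was at 5.78, 5.71 and 5.58 in light and at 5.23, 5.39 and 5.44 in darkness (difference 0.34, SE 0.08, adjusted p = 0.312). CaBP1, a gene of the protein disulfide isomerase family of the endoplasmic reticulum, was at 0.29 (SE 0.07). The Hedgehog co-receptor gene ihog was at 0.28 (SE 0.07), and FarO, a fatty acyl-CoA reductase gene, at 0.31 (SE 0.08). CG11417, CG7402, CG5639 and CG3603 lay between 0.29 and 0.42. In all 12 of these genes the 3 lit arrays were above the 3 dark arrays, as the choice by p favours.

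**Figure D3:**
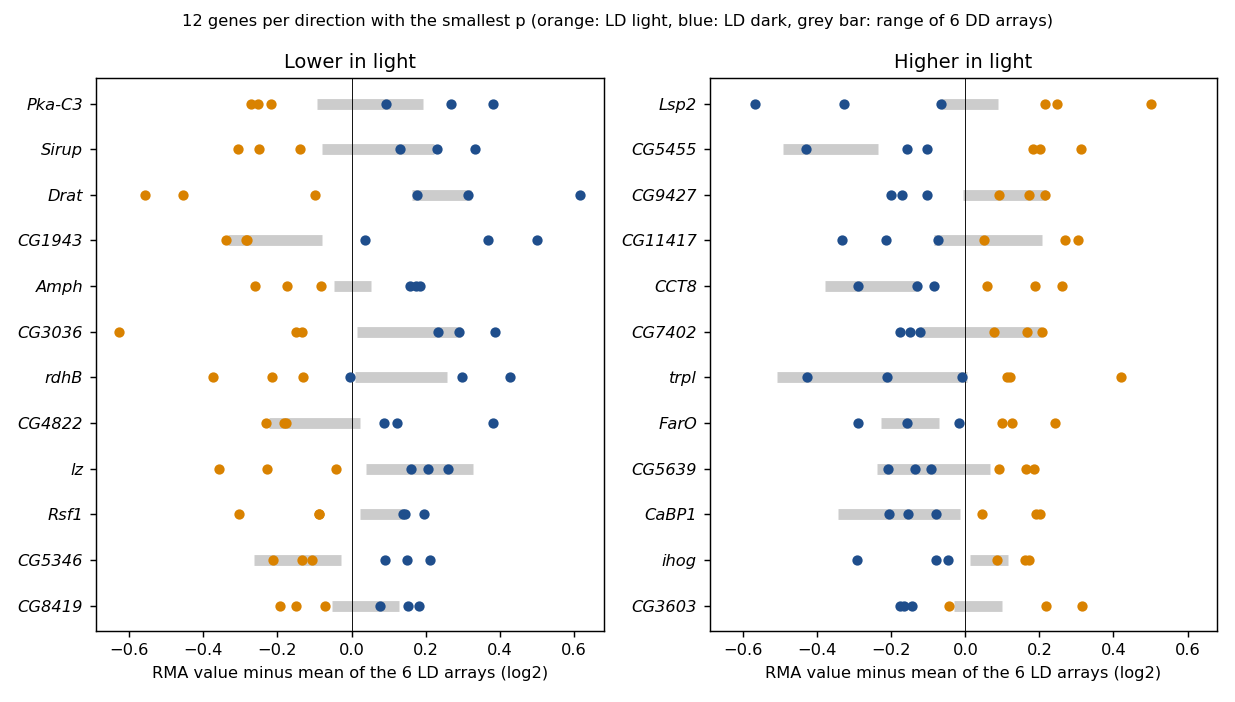
RMA values minus the mean of the 6 LD arrays (x axis, log2) for the 12 genes per direction with the smallest p, with light arrays in orange, dark arrays in blue and the range of the 6 DD arrays as a grey bar. The light and dark arrays do not overlap in any of the 24 genes, and the grey bars lie at the dark end for Drat and FarO and at the lit end for CG1943 and CG5346.

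The DD arrays show where these genes stood without any light. They share the fit but no array with the LD phases. Of the 13 probe sets lower in light (the 12 genes above and M7BP), 9 had a DD mean nearer to the LD dark mean and 4 nearer to the LD light mean. All 6 DD arrays were above all lit arrays in 10 of the 13, and below all dark arrays in 4. Some means lay almost midway: the distances to light and dark were 0.403 and 0.369 for M7BP, and 0.162 and 0.183 for Amph. CG1943 lay near the lit end: its DD mean of 6.02 ± 0.11 (SD, n = 6) was 0.10 from the light mean and 0.51 from the dark mean. Of the 12 genes higher in light, 8 had a DD mean nearer to the dark mean, among them CCT8, CG5455, CaBP1 and trpl, and 4 nearer to the light mean. All 6 DD arrays were below all lit arrays in 7 of the 12, and above all dark arrays in 3. For ihog the distances to light and dark were 0.08 and 0.20, and for CG9427 0.08 and 0.24. They were close to each other for Lsp2 (0.326 and 0.315) and CG7402 (0.158 and 0.141). The genes were chosen for their LD difference, so these positions are a description.

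The hour of the farthest value varied. ZT18 was the dark array farthest from the light phase in 8 of the 13 lower and 6 of the 12 higher genes, and ZT14, the first dark array, was so in 2 and 1. ZT14 was the dark array nearest to the light phase in 7 of the 13 and 8 of the 12. Among the light arrays ZT2 was the nearest to the dark phase in 5 of the 13 and 6 of the 12.

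The difference between light and darkness in LD was also tested against that between the same hours in DD. No probe set passed (0, or 0.0%), while 1025 (7.34%) had an unadjusted p under 0.05, and all 4 called probe sets were among these. The 4 were chosen for their LD difference, which is part of this contrast. Small p-values were therefore favoured for them, and their presence is no separate evidence. Sirup had the smallest p. Its difference between the days was -0.69 (SE 0.10, adjusted p = 0.0694), from -0.46 in LD and 0.22 (SE 0.07) in DD. It passed in 7 of the alternatives, among them the fits without ZT14, ZT22 or CT10. With the hour of day as a block its adjusted p was 0.126. For Drat the DD difference was 0.001 (SE 0.12) and the difference between the days -0.74 (SE 0.17, adjusted p = 0.328). For Pka-C3 the DD difference had the same sign as in LD, -0.20 (SE 0.07), and the difference between the days was -0.30 (SE 0.10, adjusted p = 0.518). The channel gene trpl had 0.43 in LD and 0.29 (SE 0.11) in DD, 0.14 (SE 0.15) apart.

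Genes that act in vision were looked at by role. In the retinoid and chromophore list, 0 of 9 measured genes passed, and the 3 lit arrays lay below the 3 dark arrays in 4 of 9 (44.4%, against 5.46% of all probe sets). The retinol dehydrogenase gene rdhB was at 6.82, 6.58 and 6.74 in light and at 6.95, 7.38 and 7.25 in darkness. All lit values of rdhB were below the dark ones, with a difference of -0.48 (SE 0.10, adjusted p = 0.228). Pdh, which encodes a dehydrogenase of the retinal pigment cells, was at -0.34 (SE 0.10), ninaG, for an oxidoreductase that makes the fly chromophore, at -0.28 (SE 0.08), and the scavenger receptor gene santa-maria, with overlapping groups, at -0.12 (SE 0.07). The fourth gene wholly below was pinta, for a retinoid-binding protein (-0.10, SE 0.09), which was picked out after its values were seen. The median of the list was -0.10, and that of all probe sets 0.009. The list median was -0.06 without ZT6 and -0.17 without ZT22.

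The phototransduction list had a median of 0.03, between 0.02 and 0.06 without single LD arrays, and no common direction, with 16 of 25 measured genes at higher and 9 at lower values in light and 0 past the threshold. The phosphatase gene rdgC, whose product dephosphorylates rhodopsin, was at 4.45, 3.88 and 4.42 in light and at 4.68, 5.07 and 4.80 in darkness (-0.60, SE 0.14, adjusted p = 0.329). The lit arrays were lower, and the distance was widest between ZT6 and ZT18. The channel gene trpl was at 9.59, 9.90 and 9.60 in light and at 9.47, 9.27 and 9.05 in darkness (0.43, SE 0.11, adjusted p = 0.378). The scaffold gene inaD had 0.25 (SE 0.08) and rtp, the gene of retinophilin, 0.28 (SE 0.09), with overlapping groups for rtp only. Histamine is the transmitter of fly photoreceptors. In its list of 8 measured genes for synthesis, recycling and reception, 0 had light and dark arrays that did not overlap. Of all probe sets 7.4% lay wholly above and 5.46% wholly below, so 0 of 8 says little. The smallest p in the list belonged to ine (-0.11, SE 0.08), a transporter gene. These values are those of the brightest probe set of each gene. A second, very dim probe set of the carcinine transporter gene CarT (mean 1.76) was at -0.21 (SE 0.07, unadjusted p = 0.00845, adjusted p = 0.582), with all lit arrays below the dark ones, and the brighter one at -0.14 (SE 0.12).

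Screening pigment genes are of interest because the w mutation leaves these eyes unpigmented. Of 26 measured genes 0 passed, 4 lay wholly above and 3 wholly below the dark arrays in light (15.4% and 11.5%, against 7.4% and 5.46% of all probe sets). The median was -0.03, and between -0.05 and -0.02 without single LD arrays. Rab32, for a GTPase of the pigment granule, was at 7.81, 7.90 and 8.06 in light and at 8.46, 8.42 and 7.96 in darkness (-0.36, SE 0.12, adjusted p = 0.57). Its groups overlapped at ZT10 and ZT22. The transporter gene st was at -0.23 (SE 0.08), the pteridine synthesis gene pr at -0.21 (SE 0.08) and the trafficking gene g at 0.17 (SE 0.06).

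The clock genes had no difference that passed. Of 14 measured core clock genes 5 were at higher and 9 at lower values in light, between -0.13 (vri, SE 0.09) and 0.13 (cry, SE 0.07), and light and dark arrays overlapped in all 14. Of all probe sets 7.4% lay wholly above and 5.46% wholly below. Few of 14 genes would be separate at these shares, so the overlap in all 14 says little. After quantile normalization 1 of the 14 lay wholly above. The transcript of tim itself, which all groups carry in mutated form, lay between 6.44 and 6.78 over the 6 LD arrays (-0.03, SE 0.08). These are values of its brightest probe set. A very dim probe set of tim (mean 1.77) was at -0.19 (SE 0.11), with all lit arrays below the dark ones. Another (mean 4.09) was at -0.06 (SE 0.09), with overlapping groups. The repressor gene per was at 5.12, 5.17 and 5.11 in light and at 5.30, 5.08 and 4.81 in darkness (0.07, SE 0.10), and Pdf, the neuropeptide gene of the clock neurons, spanned 6.54 to 6.66. The body colour gene y differed by 0.004 (SE 0.07). Among 17 clock output candidates, Pka-C3 and Drat were the 2 that passed, against 0.0286% of all probe sets. This list was drawn up with the calls in these data known.

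Signalling by cyclic AMP was described as a list because of Pka-C3. Pka-C3 counts in both shares given here, so their comparison with all probe sets is a description and not a test. Of 13 measured genes 1 passed, Pka-C3 itself (0.0286% of all probe sets), and 4 lay wholly below the dark arrays in light (30.8%, against 5.46%). The other 3 were the adenylyl cyclase genes Ac13E (-0.31, SE 0.10, adjusted p = 0.511) and Ac76E (-0.25, SE 0.13) and the exchange factor gene Epac (-0.38, SE 0.14), whose value of 5.17 at ZT18 stood above its other dark values of 4.56 and 4.46. A second probe set of Epac (mean 3.07) was at -0.013 with overlapping groups. The list median was -0.003, and between -0.04 and 0.02 without single LD arrays. For Sirup, 1 of 7 measured genes of complex II and its assembly passed, against 0.0286% of all probe sets in a list drawn up with its call known. The subunit genes SdhB and SdhD were at -0.11 (SE 0.08) and -0.08 (SE 0.09). For Drat, 1 of 12 genes of alcohol and aldehyde metabolism passed, against the same 0.0286%, and the next by p were Pdh and Sodh2 (-0.19, SE 0.09).

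Outside these lists no member passed in any of the other 33 of the 37 lists. List medians lay between -0.30 and 0.08. Ribosomal protein genes had small differences: 30 of 37 had higher values in light, and 11 of 37 lay wholly above the dark arrays (29.7%, against 7.4% of all probe sets), with RpS12 at 0.15 (SE 0.06) and RpL37-2 at 0.15 (SE 0.06). The largest difference in size went the other way: RpL39 was at -0.17 (SE 0.08), the 1 gene wholly below (2.7%, against 5.46%). The list median was 0.07 in LD, 0.04 without ZT14, and 0.08 between the same hours in DD. After quantile normalization the 11 became 6 and the median 0.04. Of 92 cuticle protein genes 69 had higher values in light. Wholly above the dark arrays lay 13 (14.1%, against 7.4% of all probe sets), and wholly below 2 (2.17%, against 5.46%). After median centring the 13 became 9 (9.78%, against 6.78% of all probe sets). The smallest p-values belonged to Cpr65Eb (0.24, SE 0.07) and Cpr65Ec (0.21, SE 0.08). By size the largest difference was that of Acp1, which was lower in light (-0.58) with overlapping groups. The median of the cuticle list was 0.06, and 0.04 without ZT22.

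**Figure D4:**
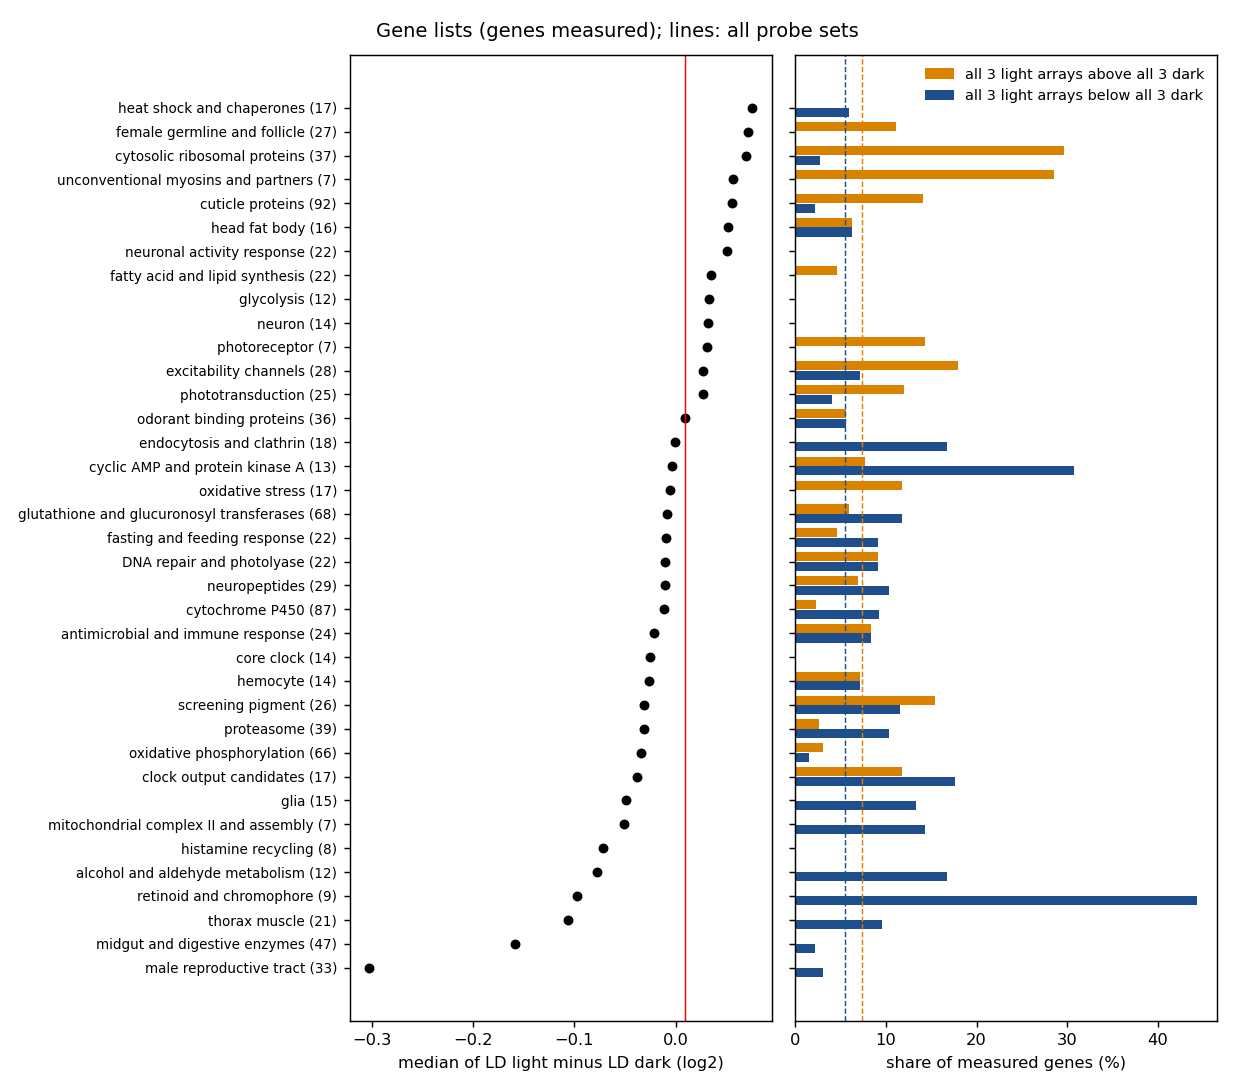
Gene lists with the number of measured genes, ordered by the median of LD light minus LD dark (left, log2), and the share of their genes in which all 3 light arrays lay above (orange) or below (blue) all 3 dark arrays (right, %). Lines mark the values over all probe sets, 0.009 on the left and 7.4% and 5.46% on the right.

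Metabolic and detoxification genes were mixed. In the fasting and feeding list, the glucosidase gene tobi was at 0.44 (SE 0.14, adjusted p = 0.57), Pepck1, for the enzyme that starts gluconeogenesis, at -0.47 (SE 0.19), and the hormone gene Lst at -0.33 (SE 0.12). Of 87 cytochrome P450 genes 8 lay wholly below and 2 wholly above the dark arrays in light (9.2% and 2.3%, against 5.46% and 7.4% of all probe sets), with Cyp6a20 at -0.32 (SE 0.07, adjusted p = 0.329), Cyp6a9 at -0.37 (SE 0.11) and Cyp6d5 at -0.33 (SE 0.10). Of 68 glutathione and glucuronosyl transferase genes 8 lay wholly below and 4 wholly above (11.8% and 5.88%, against the same 5.46% and 7.4%), led by Ugt316A1 (-0.24, SE 0.07) and Ugt36D1 (-0.17, SE 0.06). Of 66 oxidative phosphorylation genes 1 lay wholly below and 2 wholly above (1.52% and 3.03%, against 5.46% and 7.4%). Their median was -0.03, and between -0.07 and -0.01 without single LD arrays. After quantile normalization it was -0.005, with 32 genes at higher and 34 at lower values in light, against 20 and 46 as deposited. In the fatty acid and lipid synthesis list 17 of 22 genes had higher values in light, among them Lsd-1, a lipid droplet gene (0.41, SE 0.20), and the fatty acid synthase gene FASN1 (0.33, SE 0.16), with adjusted p-values of 0.726 and 0.732.

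Of neuronal genes, the potassium channel gene sei was at 5.56, 5.26 and 5.48 in light and at 5.69, 5.78 and 5.76 in darkness (-0.31, SE 0.07, adjusted p = 0.377). Slob, whose product binds the calcium-activated channel Slowpoke, was at 7.78, 6.79 and 7.04 in light and at 7.35, 8.04 and 7.83 in darkness (-0.54, SE 0.20, adjusted p = 0.616). Its lit value at ZT2 exceeded its dark value at ZT14, so the groups overlapped. The other probe set of Slob (mean 5.44) was at -0.010 (SE 0.09). Among 22 genes that respond to neuronal activity 0 had groups without overlap. Of all probe sets 7.4% lay wholly above and 5.46% wholly below. Few of 22 genes would be separate at these shares, so this count says little. After quantile normalization 1 of the 22 lay wholly above, and after median centring 1 lay wholly below. Arc2 was at 0.30 (SE 0.10) and CG13868 at -0.24 (SE 0.09). The glial GABA transporter gene Gat was at -0.26 (SE 0.09), and the insulin-like peptide gene Ilp2 at -0.15 (SE 0.07).

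The largest differences in size were of another kind. In 58 probe sets the phase means differed by more than 0.5, 2 higher (0.0143%) and 56 lower in light (0.401%). Light and dark arrays were separate in 11 of the 58. Of all probe sets 7.4% lay wholly above and 5.46% wholly below, so separation was not rarer among the 58. Of the 43 named genes among them, 12 belonged to the midgut list and 12 to the male reproductive tract list. The following examples were chosen after their values were seen. EbpII, a gene of the male ejaculatory bulb, was at 2.66, 5.73 and 5.53 in light and at 3.34, 7.08 and 7.76 in darkness. Jon65Aiv, a digestive protease gene, was at 6.09, 8.84 and 7.16 in light and at 6.70, 8.83 and 9.79 in darkness. Both were low at ZT2 and ZT14 and high at ZT22, so that the phases overlapped.

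The midgut and male tract lists overlapped between the phases. The mean of the male reproductive tract genes, each centred on its own mean over the 12 arrays, was -0.80, -0.33 and -0.28 on the light arrays and -0.78, 0.12 and 0.48 on the dark arrays. Of its 33 measured genes 29 had lower values in light, 1 lay wholly below, 0 passed, and 7 lay below the lower quartile on all arrays. The list median was -0.30, and it was -0.09 without ZT22, -0.15 without ZT2 and -0.52 without ZT14. Between the same hours in DD it was -0.90. For the 47 midgut and digestive genes the mean was -0.62, -0.01 and -0.45 in light and -0.60, 0.10 and 0.35 in darkness. Their median was -0.16, and it was -0.09 without ZT2 or ZT22 and -0.31 without ZT14. In DD it was -0.64. For the 21 thorax muscle genes the mean was -0.14, -0.17 and -0.11 in light and -0.10, 0.03 and 0.05 in darkness, so the phases did not overlap, although ZT10 and ZT14 lay 0.01 apart. Of these genes 17 had lower values in light, 2 lay wholly below (9.52%, against 5.46%) and 0 passed. The median was -0.11, with TpnC73F, for a troponin C, at -0.26 (SE 0.07, adjusted p = 0.378), and it was -0.06 without ZT18. Between the same hours in DD, where no light was given, the muscle median was -0.23. Pooled heads cannot tell fewer cells of a type from less RNA per cell.

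A body-tissue score, the mean over the centred genes of these 3 lists, was -0.58, -0.15 and -0.32 on the light arrays and -0.56, 0.09 and 0.33 on the dark arrays. With the score as a covariate 4 probe sets passed, those of Pka-C3 and M7BP again and those of CG1943 and rgr. Under that fit the difference of Drat was -0.71 and that of Sirup -0.45, each with adjusted p = 0.0731. Pka-C3 was then at -0.51 and M7BP at -0.81.

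**Figure D5:**
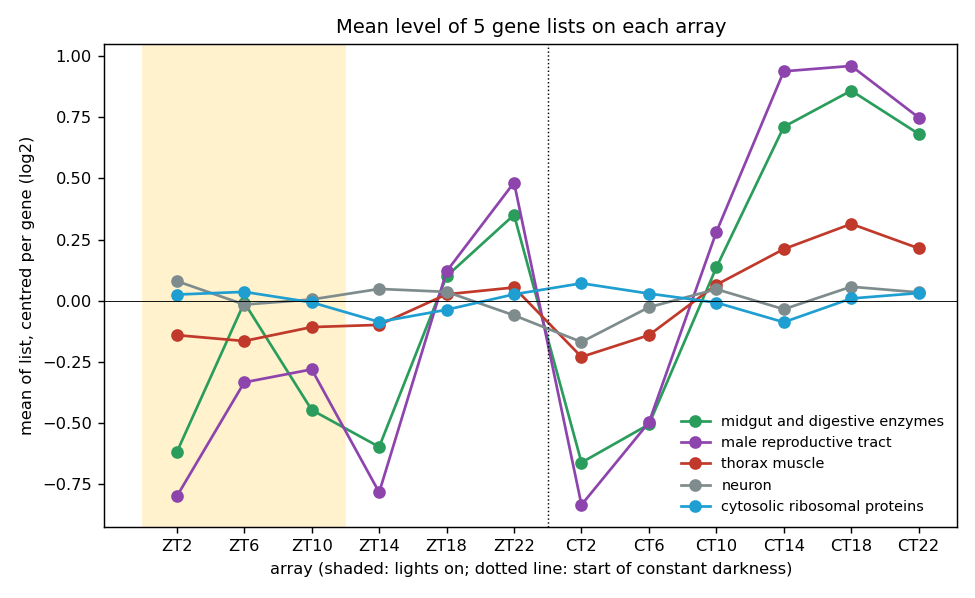
Mean of 5 gene lists on the 12 arrays (x axis, in order of collection), each gene centred on its own mean (y axis, log2). The midgut and male reproductive tract lists are low at ZT2 and ZT14 and higher at ZT18 and ZT22, while the neuronal list stays between -0.06 and 0.08 over the LD arrays.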

How the data were processed

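Heads were profiled on 12 Affymetrix arrays with 1 channel, 1 per time point. Per the submitters' processing notes the authors used RMA, and the deposited values are log2. Neither the RMA version nor the set of arrays processed together is stated in the labels. RMA corrects background, normalizes by quantiles and summarises probes. Depth does not apply to arrays, and their number limits the precision. Of 14010 probe sets 44 controls were left out. The platform annotation gave 1 symbol for 12443 of the rest, several for 327 and none for 1196, and only the first were named. Of the list members, 990 of 1331 entries were measured. A gene with several probe sets is represented by the brightest.

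Means of 4 groups of 3 arrays were fitted with limma 3.58.1 in R 4.3.3 (8 residual degrees of freedom) and contrasts taken with moderated two-sided statistics, after a check on simulated data. The rule named called probe sets, the 12 genes with the smallest p per direction with a mean above the lower quartile (2.94), and up to 4 members of each of 37 lists. It also named the core clock genes and the strain mutations, of which w is given no value here. Members and lists were chosen with earlier results of these data known. A gene in several lists counts in each. Lists are described by counts and medians only. Alternatives covered normalization, arrays in the fit, filter, prior, weights, covariates, the choice of probe set and, added after seeing the data, the hour of day as a block and list medians without single arrays.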

Additional observations from a re-analysis of the deposited data

How the results depend on the processing

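The count of 4 between LD light and LD dark was 0 with quantile normalization, with only the LD arrays, without the DD subjective night arrays and with a trend over collection hours. It was 2 with the mean over the probe sets of a gene, 7 with array weights and 9 with a trended, robust prior. Median centring gave 5, a filter at the median level gave 3, and the body-tissue score gave 4. Leaving out single arrays gave 0 to 8. Settings with fewer arrays have fewer residual degrees of freedom; for the others the cause was not tested. The count of 0 for the difference between the days was 1 with the filter at the median level, with the robust prior and with array weights, 3 with the trend, and 0 to 6 without single arrays. The 90 named genes with an unadjusted p under 0.05 gave 1953 alternative values, of which 1877 kept direction and side of the threshold, 60 lost a call, 11 gained one and 5 reversed. All 5 reversed with the trend: Cp38 (-0.014), Mlc1 (0.078), Obp56g (0.062), Zasp66 (0.064) and fat-spondin (-0.047). Much of the agreement was fixed in advance. Leaving out DD arrays, the filter and the prior cannot change a difference within LD. Genes not called also count as kept while they stay uncalled. The lost calls are those of the 4 called probe sets. The mean over probe sets aside, Pka-C3 passed in 7 of 21 alternatives, M7BP in 8, Sirup in 6 and Drat in 5. The other 77 named probe sets gave 1605 values, of which 0 passed and 42 had another sign; these are not listed singly. No paired analysis was possible because the labels carry no replicate numbers, and the light and dark arrays of the LD day share no hour. Between the days the labels do share the hour. A fit with the hour of day as a block, chosen after seeing the data, gave 1 call for the difference between the days, Acp1, an adult cuticle protein gene (-1.19, limma's adjusted p = 0.0196, against 0.665 without the block).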

Other observations

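All 8 subunit genes of the cytosolic chaperonin, the complex that folds actin and tubulin, had higher mean values in light, from 0.03 (CCT7) to 0.34 (CCT8), with a median of 0.10, which was 0.17 without ZT10. This list was added after the values of CCT8 were seen, so its count has no test. Of all 13966 probe sets 7525 had higher values in light. The light and dark arrays were separate in 1 of the 8 (12.5%, against 7.4% of all probe sets wholly above), and 0 passed. That 1 was CCT8, the gene that prompted the list. CCT3 was at 4.34, 4.36 and 4.16 in light and at 4.18, 4.09 and 4.11 in darkness, and CCT2 at 7.51, 7.49 and 7.27 and at 7.33, 7.12 and 7.26. In both genes ZT2 and ZT6 were high and ZT10 lay within the range of the dark arrays. The median of the chaperonin list over the same hours in DD was -0.07. Of 23 genes of folding in the endoplasmic reticulum, also added later, 13 had higher and 10 lower values in light, with a median of 0.04, which was -0.007 without ZT10.

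Female germline and follicle genes had higher values in light in 21 of 27, with 3 wholly above the dark arrays (11.1%, against 7.4% of all probe sets) and 0 past the threshold. The median was 0.07, and 8 of the 27, among them osk, vas and bam, lay below the lower quartile on all arrays. The chorion genes Cp36 and Cp38 were at 0.16 (SE 0.07) each.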
